A study of Homo sapiens with 15 samples.

Results

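The ligand genes described here encode 10 secreted members of the TGF-beta superfamily: GDF15, the activin subunits INHBB and INHBA, the bone morphogenetic protein (BMP) group BMP8A, BMP8B, GDF7, BMP2 and BMP4, and TGFB1 and TGFB2. They are 10 of the 61552 genes counted and were picked by name, with earlier results of these libraries known, so their levels and changes are given as a description and not as a test of the choice. RNA-seq was run on H1299, an established human lung cancer cell line without functional p53 of its own, into which p53 constructs were introduced by overexpression. In 2023 the cells received wild-type p53 (WT) or a control vector (Ctrl). In 2022 they received LLPSEp53_2, LLPSEp53_1 or p53, and no vector control of that year was analysed here. Every group had 3 libraries. The labels do not describe the LLPSEp53 constructs further, the promoter that drove any construct, the time after its introduction, or whether the replicates were separate cultures.

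Ligands of this superfamily are made as precursors, cut by proprotein convertases and secreted as dimers. Most bind a pair of receptor kinases, and the receptors phosphorylate SMAD proteins that move to the nucleus and change transcription. Activins and TGF-betas act mainly through SMAD2 and SMAD3, and BMPs mainly through SMAD1, SMAD5 and SMAD9. GDF15 stands apart: it is a stress-induced hormone that acts through GFRAL, a receptor of the hindbrain, together with the kinase RET, and it is a known target of p53.

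Total counts ran from 16208538 to 19228748 for libraries of 2023, and from 13535397 to 16438272 for those of 2022. The labels place p53 replicate 2 in another collection batch, and the p53 level used below is that of replicates 1 and 3. Levels are library-scaled counts-per-million (CPM) values, scaled within each year, so a level of 2022 and one of 2023 are not compared. Where genes are set side by side, RPKM values are used, which divide the CPM by the exon length in kilobases. A gene is called where edgeR's adjusted p over all genes of the comparison was under 0.05. CDKN1A, which encodes the cell cycle inhibitor p21, was 3.13-fold higher in WT than in Ctrl libraries (edgeR adjusted p = 5.80e-09). MDM2, the ubiquitin ligase that limits p53, was 4.61-fold higher in WT than in Ctrl libraries (edgeR adjusted p = 4.95e-11). In 2022 neither gene was called against p53. The log2 changes of CDKN1A were -0.13 for LLPSEp53_2 and 0.57 for LLPSEp53_1, and those of MDM2 were -0.4 and 0.1. Between the constructs, CDKN1A was called lower in LLPSEp53_2 than in LLPSEp53_1 libraries (-0.7, edgeR adjusted p = 0.0302), and MDM2 (-0.5) was not called. The epithelial keratins KRT8 and KRT18 and the mesenchymal filament VIM were abundant in every library (at least 699.8 CPM each), while EPCAM (up to 1.66 CPM), CDH1 (up to 0.314 CPM) and KRT19 (up to 0.459 CPM) were near 0. Over all groups, the summed levels of other cell types' markers reached at most 0.488 CPM for 4 leukocyte genes, 3.13 CPM for 3 endothelial genes, 4.86 CPM for 3 fibroblast genes and 0.24 CPM for 2 erythroid genes. The 5 alveolar and airway genes summed to at most 8.03 CPM, with NKX2-1 at up to 7.0 CPM.

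The DNA in front of the start site is shown for the 5 genes that were called in at least 1 comparison. RefSeq promoter windows, 250 bases before to 50 after the start on GRCh38.p14, were at hand for 9 of the 10 ligand genes; the table used has no entry for BMP2. Each line below gives the 100 bases before the RefSeq start, 5′ to 3′ on the gene's own strand. For GDF15 and GDF7 this stretch lies inside the GENCODE 29 gene span given below, which begins further upstream. Capitals mark the TATA box letters TATAAA in GDF15, and the CCAAT box, read as ATTGG on this strand, in BMP8A and BMP8B. INHBB and GDF7 hold no CCAAT or ATTGG in their stretches. The order of the lines is chr19:18386058-18386157 (plus strand), chr1:39491536-39491635 (plus strand), chr1:39788866-39788965 (minus strand), chr2:120346036-120346135 (plus strand) and chr2:20667044-20667143 (plus strand).
GDF15: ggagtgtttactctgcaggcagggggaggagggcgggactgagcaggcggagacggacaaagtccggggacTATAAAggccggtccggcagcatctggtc
BMP8A: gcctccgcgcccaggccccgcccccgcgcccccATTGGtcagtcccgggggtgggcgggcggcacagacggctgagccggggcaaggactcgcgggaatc
BMP8B: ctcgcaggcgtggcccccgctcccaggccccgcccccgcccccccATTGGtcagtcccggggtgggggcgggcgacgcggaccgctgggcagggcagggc
INHBB: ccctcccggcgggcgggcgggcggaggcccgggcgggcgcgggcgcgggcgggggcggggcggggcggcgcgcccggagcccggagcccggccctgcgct
GDF7: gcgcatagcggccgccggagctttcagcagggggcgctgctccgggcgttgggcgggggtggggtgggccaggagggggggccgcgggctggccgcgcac

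These promoters differ in base composition. Over the whole window, G and C made up 88.7% of the bases in INHBB, 80.7% in BMP8A, 79.7% in BMP8B, 73.0% in GDF7 and 59.3% in GDF15. TATAAA stood before the start in GDF15, TGFB2 and INHBA, and in 6.8% of all 35116 windows. CCAAT on either strand was found in BMP8A, BMP8B, INHBA and GDF15, and in 34.6% of all windows. The windows of BMP8A and BMP8B, genes of chromosome 1 that arose by duplication, were identical at 245 of 317 aligned columns, or 77.3%.

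The p53 consensus element is a pair of decamers with a fixed core in each. With both cores intact and up to 3 mismatches elsewhere, it was found in 1 of the 11 windows of the ligand genes, that of GDF15, where it begins at base 29 after the start. The stretch is shown because GDF15 is the ligand gene with a known p53 response, and capitals mark the element, chr19:18386186-18386205 on the plus strand.
GDF15 element: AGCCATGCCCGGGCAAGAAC

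This match carried 3 mismatches, and its base 5 is the first base of the GENCODE 29 start codon, so the element covers the start of the coding sequence. The limit of 3 mismatches was set after the GDF15 sequence had been seen. At that limit 0.427% of all windows held an element (150 of 35116), and with up to 2 mismatches 0.157% did (55 of 35116), the GDF15 window not among them. The remaining windows of the ligand genes held no such letters. A match is a description of the letters and not a measured binding site.

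GDF15 was higher in every WT library than in any Ctrl library. The gene lies on GRCh38 chromosome 19, 18374731 to 18389176, plus strand, with 5 exon blocks. It had 154.9, 185.6 and 157.2 CPM in WT libraries, against 43.6, 74.2 and 60.4 CPM in Ctrl libraries. The groups did not overlap, and the lowest WT value was above the highest Ctrl value by more than the whole Ctrl range. The change was 1.48 ± 0.15 on the log2 scale (SE, n = 3 each), a 2.79-fold higher level in WT, and it was called. In bulk RNA, more expressing cells and more RNA per cell cannot be told apart.

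No GDF15 difference was called among the constructs of 2022. It had 15.1, 14.1 and 13.0 CPM in LLPSEp53_2 libraries, 15.3, 16.7 and 25.8 CPM in LLPSEp53_1 libraries, and 15.5 and 17.3 CPM in p53 libraries. LLPSEp53_2 libraries all lay below both p53 libraries, but by a log2 change of only -0.22 ± 0.22, and LLPSEp53_1 libraries overlapped with p53 libraries (0.23 ± 0.22). Without LLPSEp53_1 replicate 3, its highest library, that change was -0.03. Between the constructs, GDF15 was lower in LLPSEp53_2 than in LLPSEp53_1 libraries by -0.46 ± 0.19 without overlap, which was not called, and by -0.19 without LLPSEp53_1 replicate 3.

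**Figure D1:**
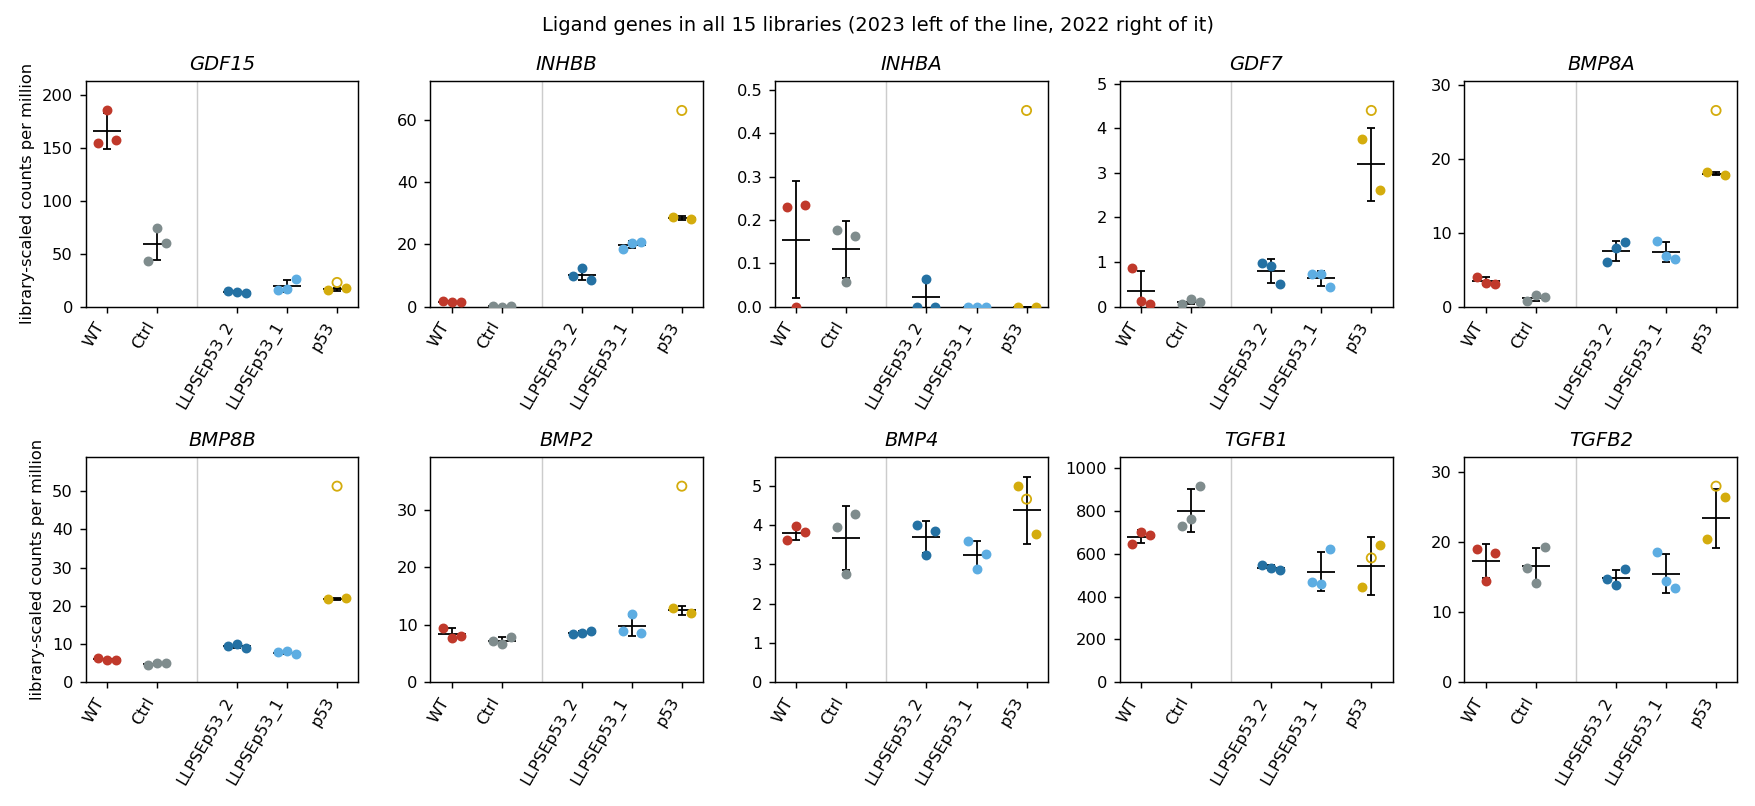
Library-scaled CPM (vertical axes, each from 0) of the 10 ligand genes in every library, with bars for the mean ± SD of each group; the open circle is p53 replicate 2, which is left out of the p53 mean. GDF15 is higher in WT than in Ctrl libraries, while INHBB, GDF7, BMP8A, BMP8B, BMP2 and TGFB2 are highest in p53 libraries among those of 2022.

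INHBB, which encodes the beta-B subunit of activin B and inhibin B, was the tested ligand gene with the largest fold between WT and Ctrl, and the one ligand gene called between the LLPSEp53 constructs. It lies on chromosome 2, 120346143 to 120351808, plus strand, with 2 exon blocks. The gene had 1.89, 1.56 and 1.41 CPM in WT libraries, against 0.236, 0 and 0.163 CPM in Ctrl libraries. The Ctrl values rest on 4, 0 and 3 counts, so INHBB was close to undetected there. Over the groups, 83 counts in WT stood against 7 in Ctrl, a ratio of 12.3 after library scaling (95% interval 5.73 to 31.6, counting error only). The fitted change was 3.55 ± 0.57 on the log2 scale and was called. INHBB passed the filter on low counts only through its WT libraries. A call in the other direction was therefore hardly possible, and this call is given as a description. It was 4.18 without Ctrl replicate 1 and 2.99 without Ctrl replicate 2.

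Among the constructs of 2022, INHBB formed a graded series. It had 9.92, 12.4 and 8.68 CPM in LLPSEp53_2 libraries, 18.5, 20.5 and 20.8 CPM in LLPSEp53_1 libraries, and 28.8 and 28.0 CPM in p53 libraries. No group overlapped with another. LLPSEp53_2 libraries were 2.74-fold below p53 libraries (log2 change -1.46 ± 0.17), a difference that was called. Relative to LLPSEp53_1 they were 1.93-fold lower (-0.95 ± 0.16), also called. The step between LLPSEp53_1 and p53 libraries, -0.51 ± 0.17, was not called. The call between the LLPSEp53 constructs was lost without LLPSEp53_1 replicate 2 (-0.93), without LLPSEp53_2 replicate 1 (-0.92) and without LLPSEp53_2 replicate 3 (-0.84).

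INHBA, the beta-A subunit of activin A, was barely detected. It lies on chromosome 7, 41667168 to 41705834, minus strand. It had 4, 0 and 4 counts in WT libraries, against 3, 1 and 3 counts in Ctrl libraries. The library-scaled ratio was 1.19 (95% interval 0.377 to 3.85, counting error only), and no difference was detectable at this depth. LLPSEp53_2 libraries held 0, 1 and 0 counts, and LLPSEp53_1 and p53 libraries held 0. INHBA did not pass the filter on low counts in either year. INHA, the alpha subunit that turns activin dimers into inhibins, did not pass it either, with 0.352 ± 0.0503 CPM in WT and 0.208 ± 0.213 CPM in Ctrl libraries (SD, n = 3 each).

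BMP8A and BMP8B are closely related BMPs best known from germ cell development and, for BMP8B, brown fat in mice. BMP8A lies on chromosome 1, 39491646 to 39525935, plus strand, and BMP8B on chromosome 1, 39757182 to 39788861, minus strand. Reads of the 2 genes can be confused: 36.8% of the 50-base stretches and 22.0% of the 150-base stretches of BMP8A exons also occur in BMP8B, and the corresponding shares of BMP8B are 12.7% and 7.3%. BMP8A exons also share 15.8% of their length with the pseudogene PPIEL on the opposite strand, and no source used here says whether counting used the strand. The values of the pair are therefore uncertain as values of 1 gene each.

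BMP8A had 4.07, 3.19 and 3.12 CPM in WT libraries, against 0.768, 1.52 and 1.25 CPM in Ctrl libraries. The groups did not overlap, and the 2.91-fold higher level in WT (log2 change 1.54 ± 0.31) was called. BMP8B had 6.25, 5.95 and 5.76 CPM in WT libraries, against 4.55, 4.95 and 5.15 CPM in Ctrl libraries. WT libraries were again all higher, but the change of 0.29 ± 0.19 was not called.

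In 2022 the pair moved alike. BMP8A had 6.04, 7.9 and 8.74 CPM in LLPSEp53_2 libraries, 8.93, 6.9 and 6.4 CPM in LLPSEp53_1 libraries, and 18.2 and 17.9 CPM in p53 libraries. BMP8B had 9.62, 9.97 and 8.87 CPM in LLPSEp53_2 libraries, 7.83, 8.17 and 7.32 CPM in LLPSEp53_1 libraries, and 21.7 and 22.0 CPM in p53 libraries. For both genes the p53 libraries lay above all 6 LLPSEp53 libraries. BMP8A was 2.38-fold lower in LLPSEp53_2 than in p53 libraries (log2 change -1.25 ± 0.2) and 2.43-fold lower in LLPSEp53_1 than in p53 libraries (-1.28 ± 0.2). BMP8B was 2.3-fold lower in LLPSEp53_2 than in p53 libraries (-1.2 ± 0.15) and 2.8-fold lower in LLPSEp53_1 than in p53 libraries (-1.49 ± 0.16). All 4 differences were called. With 1 p53 library left, the BMP8A calls were lost for both constructs (log2 changes of -1.3 to -1.24), and so was that for LLPSEp53_1 without its replicate 2 (-1.23); the BMP8B call for LLPSEp53_1 was lost without p53 replicate 3 (-1.48). Between the constructs, BMP8A differed by 0.03 ± 0.19, and BMP8B was higher in LLPSEp53_2 than in LLPSEp53_1 libraries by 0.29 ± 0.15, without a call.

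GDF7, also named BMP12 and known from dorsal spinal cord and tendon development, was a weakly expressed gene with the largest fold among the constructs. It lies on chromosome 2, 20666664 to 20679245, plus strand, and 7.0% of its exon length is shared with the noncoding gene AC012065.4 on the opposite strand. It had 0.986, 0.907 and 0.503 CPM in LLPSEp53_2 libraries, 0.732, 0.737 and 0.431 CPM in LLPSEp53_1 libraries, and 3.77 and 2.61 CPM in p53 libraries. Both p53 libraries were above all LLPSEp53 libraries. GDF7 was 3.96-fold lower in LLPSEp53_2 than in p53 libraries (log2 change -1.98 ± 0.38) and 5.02-fold lower in LLPSEp53_1 than in p53 libraries (-2.33 ± 0.39), both called. For LLPSEp53_2 the call was lost without p53 replicate 1 (-1.69), p53 replicate 3 (-2.23), LLPSEp53_2 replicate 2 (-2.08) or LLPSEp53_2 replicate 3 (-1.74). For LLPSEp53_1 it was lost without p53 replicate 1 (-2.04), p53 replicate 3 (-2.57) or LLPSEp53_1 replicate 2 (-2.46). The constructs differed from each other by 0.34 ± 0.42.

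In the libraries of 2023 GDF7 was near its detection limit. It had 15, 2 and 1 counts in WT libraries, against 1, 3 and 2 counts in Ctrl libraries, and was not tested. WT replicate 1 held 15 of the 18 WT counts. The library-scaled ratio of WT over Ctrl was 3.12 (95% interval 1.19 to 9.6, counting error only) with that library and 0.79 (0.128 to 3.7) without it.

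BMP2 and BMP4 are the classical BMPs of bone formation and embryonic patterning. BMP2 lies on chromosome 20, 6767664 to 6780280, plus strand, and BMP4 on chromosome 14, 53949736 to 53958761, minus strand. BMP2 had 9.52, 7.7 and 8.12 CPM in WT libraries, against 7.27, 6.64 and 7.87 CPM in Ctrl libraries, with overlap and a log2 change of 0.22 ± 0.18. It had 8.38, 8.55 and 8.87 CPM in LLPSEp53_2 libraries, 8.86, 11.8 and 8.62 CPM in LLPSEp53_1 libraries, and 13.0 and 12.0 CPM in p53 libraries. The p53 libraries were highest without overlap, yet the changes of -0.54 ± 0.18 for LLPSEp53_2 and -0.36 ± 0.18 for LLPSEp53_1 were not called. With p53 replicate 2 counted in the p53 level, they were -1.19 and -1.01 for the same constructs and still not called. BMP4 averaged 3.8 ± 0.179 CPM in WT and 3.67 ± 0.805 CPM in Ctrl libraries, and in 2022 it averaged 3.69 ± 0.403 CPM in LLPSEp53_2, 3.24 ± 0.354 CPM in LLPSEp53_1 and 4.38 ± 0.849 CPM in p53 libraries (SD, n = 3, and n = 2 for p53). No BMP4 change exceeded 0.43 on the log2 scale in size, and none was called.

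TGFB1 and TGFB2 encode TGF-betas, which restrain epithelial growth and drive matrix production. TGFB1 lies on chromosome 19, 41301587 to 41353911, minus strand, and shares 6.6% of its exon length with HNRNPUL1 on the opposite strand. TGFB2 lies on chromosome 1, 218346235 to 218444619, plus strand, and shares 26.6% of its exon length with TGFB2-OT1 on the same strand. TGFB1 had 645.9, 703.0 and 688.9 CPM in WT libraries, against 729.2, 759.3 and 914.6 CPM in Ctrl libraries. It was lower in every WT library, but the change of -0.24 ± 0.12 was not called, and with each library's trend with GC content removed it was -0.06. Among the libraries of 2022 TGFB1 ranged from 524.4 to 548.4 CPM in LLPSEp53_2, from 459.4 to 619.4 CPM in LLPSEp53_1, and was 446.4 and 639.2 CPM in p53, so all groups overlapped.

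TGFB2 had 19.0, 14.5 and 18.4 CPM in WT libraries, against 16.3, 14.2 and 19.3 CPM in Ctrl libraries, and the groups overlapped. It had 14.7, 13.9 and 16.2 CPM in LLPSEp53_2 libraries, 18.6, 14.5 and 13.4 CPM in LLPSEp53_1 libraries, and 20.5 and 26.4 CPM in p53 libraries. Both constructs lay below p53 without overlap, by -0.65 ± 0.19 for LLPSEp53_2 and -0.6 ± 0.19 for LLPSEp53_1, and neither change was called. The LLPSEp53_1 change was called without LLPSEp53_1 replicate 1 (-0.75). The LLPSEp53_2 change was called without LLPSEp53_1 replicate 3 (-0.65), a library of neither group in that comparison. It was also called with only the groups compared in the fit.

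Per length of exon, TGFB1 was the most abundant of the 10 genes in every group. The exon lengths are those of GENCODE 29, while the annotation used for counting is not stated. The exon stretches shared with other genes, given above, also make the places of BMP8A, BMP8B and TGFB2 uncertain. The SD below covers neither limit. In WT libraries TGFB1 stood at 209.8 ± 9.19 RPKM, followed by GDF15 at 79.5 ± 8.18 RPKM, and no other ligand gene passed 3.36 ± 0.474 RPKM (TGFB2). In Ctrl libraries TGFB1 stood at 247.4 ± 30.7 RPKM and GDF15 at 28.4 ± 7.35 RPKM. The order below GDF15 was TGFB2, BMP2, BMP8A, BMP8B, BMP4, INHBB, GDF7 and INHBA in WT libraries, where BMP2 (2.34 ± 0.265 RPKM) and BMP8A (2.04 ± 0.314 RPKM), and BMP8B (1.24 ± 0.0506 RPKM) and BMP4 (1.23 ± 0.0582 RPKM), did not differ beyond their SD. In Ctrl libraries BMP8A (0.697 ± 0.225 RPKM) came after BMP4 (1.19 ± 0.261 RPKM) and BMP8B (1.01 ± 0.0636 RPKM). Within 2022 the order at the top differed between constructs. In LLPSEp53_2 libraries GDF15 (6.74 ± 0.515 RPKM) came before BMP8A (4.47 ± 0.817 RPKM) and INHBB (3.23 ± 0.597 RPKM), and in LLPSEp53_1 libraries GDF15 (9.23 ± 2.73 RPKM) and INHBB (6.22 ± 0.386 RPKM) came before BMP8A (4.38 ± 0.793 RPKM). In p53 libraries BMP8A (10.6 ± 0.119 RPKM) and INHBB (8.86 ± 0.187 RPKM) came before GDF15 (7.87 ± 0.602 RPKM).

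**Figure D2:**
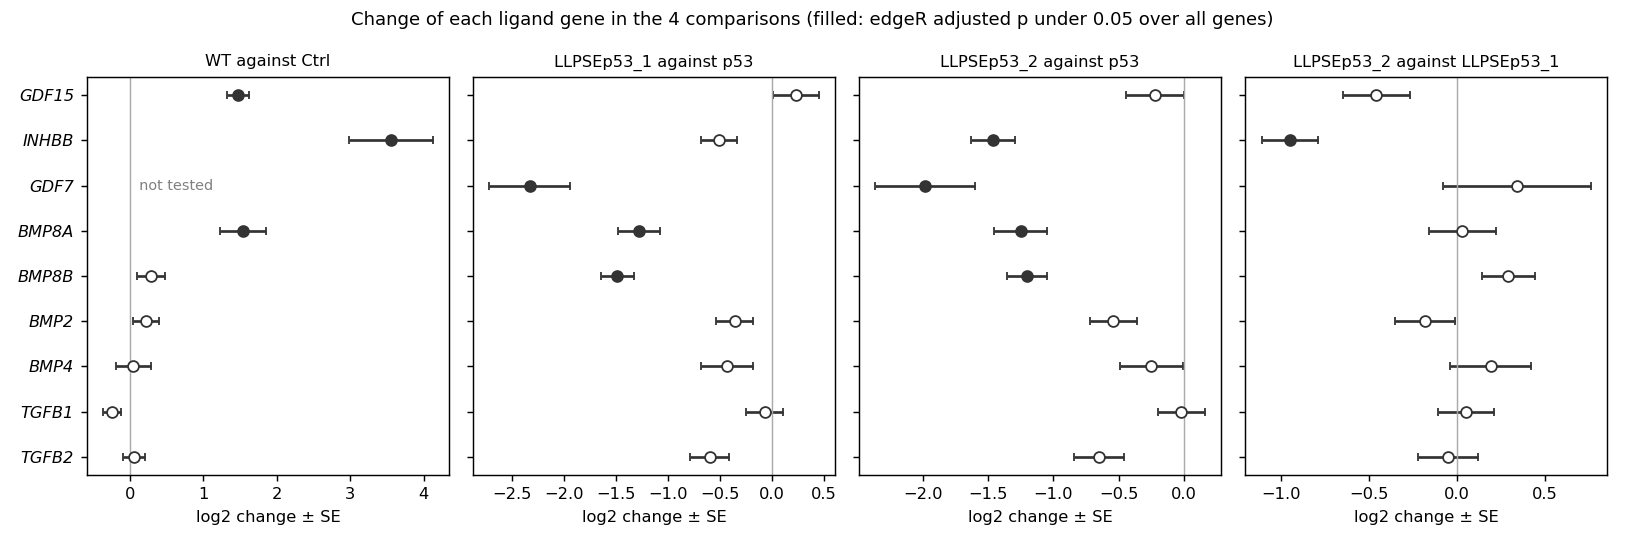
Log2 change ± SE (horizontal axes, a different range in each panel) of the 9 ligand genes that were tested in at least 1 comparison; filled points were called. GDF15, INHBB and BMP8A are above 0 and called in WT against Ctrl, and GDF7, BMP8A and BMP8B are below 0 and called for both LLPSEp53 constructs against p53, with INHBB called for LLPSEp53_2.

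Counts over the ligand genes stand beside the share of all genes called in the same comparison, and since the genes were chosen with these contrasts known, nothing is read from the difference. For WT against Ctrl, 8 of the 10 passed the filter on low counts and 3 were called, all higher, where 4.12% of all 16156 genes tested were called and 3.24% were called higher. WT libraries were higher without overlap for 4 ligand genes and lower for 1, against 12.0% and 10.5% of all genes. For LLPSEp53_2 against p53, 9 passed the filter and 4 were called, all lower, with 1.93% of all 17459 genes called and 1.83% called lower. For LLPSEp53_1 against p53, 3 of 9 were called, all lower, with 0.888% of all genes called and 0.836% called lower. For LLPSEp53_2 against LLPSEp53_1, INHBB was the 1 call among 9, with 0.372% of all genes called and 0.349% called lower. There, 1 ligand gene was higher and 2 were lower without overlap, against 5.97% and 7.03% of all genes. Libraries lay lower without overlap for 7 ligand genes in either construct against p53, where 17.5% of all genes did so for LLPSEp53_2 and 14.7% for LLPSEp53_1. The median log2 change of the tested ligand genes was 0.26 for WT against Ctrl, -0.65 for LLPSEp53_2 against p53 and -0.51 for LLPSEp53_1 against p53, beside -0.01, 0.01 and 0.00 for all genes. The LLPSEp53 comparisons share their p53 libraries. With 1 p53 library left, 2 ligand genes were called for LLPSEp53_2. For LLPSEp53_1 the count was 1 without p53 replicate 1, 0 without p53 replicate 3 and 1 without LLPSEp53_1 replicate 2, and between the constructs it was 0 without LLPSEp53_1 replicate 2, LLPSEp53_2 replicate 1 or LLPSEp53_2 replicate 3.

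Beyond the ligand genes, 95 other genes of the pathway were followed in 7 lists by role, and 67 of them passed the filter in each comparison. In WT against Ctrl, 10 of the 67 rose and 2 fell (edgeR, adjusted p under 0.05), with a median log2 change of 0.02 beside -0.01 for all genes. Of all genes tested, 4.12% were called, 3.24% higher and 0.873% lower, and the counts by list below stand beside these shares. The calls were spread over ligands, receptors, SMADs, enzymes and targets. Leaving out 1 library lowered the count of genes that rose to 5 without WT replicate 1 and 4 without Ctrl replicate 3, and that of genes that fell to 0 without WT replicate 1, WT replicate 3 or Ctrl replicate 1 and to 1 without Ctrl replicate 3.

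Among receptors and co-receptors, 2 of 13 rose in WT. TGFBR1, the type I receptor of TGF-beta, averaged 42.6 ± 4.35 CPM in WT and 23.5 ± 1.2 CPM in Ctrl libraries (edgeR adjusted p = 8.21e-05). RET, the signalling partner of GFRAL, had 3.73, 4.81 and 4.47 CPM in WT libraries, against 1.24, 2.42 and 2.17 CPM in Ctrl libraries (edgeR adjusted p = 0.0177). GFRAL itself had 0 counts in all 15 libraries, which allows up to 0.156 to 0.2216 CPM per library. The RET call was lost without WT replicate 2 (adjusted p = 0.0702), WT replicate 3 (0.0712), Ctrl replicate 1 (0.0541) or Ctrl replicate 3 (0.0658).

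Of the SMAD genes, 2 of 8 rose. SMAD5, which carries BMP signals, averaged 70.5 ± 1.8 CPM in WT and 47.7 ± 1.72 CPM in Ctrl libraries (edgeR adjusted p = 0.00119). SMAD7, a feedback inhibitor of TGF-beta receptors, rose 1.4-fold (edgeR adjusted p = 0.0443), a call lost without WT replicate 1 (0.329), WT replicate 2 (0.0838), Ctrl replicate 2 (0.0674) or Ctrl replicate 3 (0.21). Processing and activating genes had 2 of 8 higher. ITGB8, the integrin chain that frees TGF-beta from its latent complex, averaged 4.45 ± 1.12 CPM in WT and 1.76 ± 0.83 CPM in Ctrl libraries (edgeR adjusted p = 0.0141), lost without WT replicate 1 (0.153) or Ctrl replicate 3 (0.124). PCSK5, a proprotein convertase, averaged 7.8 ± 1.33 CPM in WT and 4.39 ± 0.139 CPM in Ctrl libraries (edgeR adjusted p = 0.0166), lost without WT replicate 1 (0.0921), WT replicate 3 (0.123) or Ctrl replicate 3 (0.0915).

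Of 8 other ligands tested, GDF6 rose 2.14-fold (edgeR adjusted p = 0.0261) and GDF9 rose 1.93-fold (edgeR adjusted p = 0.0411). AMH, the anti-Müllerian hormone, fell 1.35-fold (edgeR adjusted p = 0.0379). TGFB3 was tested and not called (log2 change -0.07 ± 0.2), with 10.6 ± 3.34 CPM in WT and 11.1 ± 2.06 CPM in Ctrl libraries. The GDF6 call was lost without WT replicate 1 (0.288), WT replicate 3 (0.0577) or Ctrl replicate 3 (0.111), that of GDF9 without WT replicate 1 (0.0664), WT replicate 2 (0.247), Ctrl replicate 2 (0.0505) or Ctrl replicate 3 (0.203), and that of AMH without any library except Ctrl replicate 2 (0.0578 to 0.229). With the GC trend removed the adjusted p was 0.13 for GDF9 and 0.292 for AMH.

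Known target genes of the pathway moved in both directions. PMEPA1, a target of TGF-beta that limits its signalling, averaged 27.4 ± 3.98 CPM in WT and 10.5 ± 2.25 CPM in Ctrl libraries (2.61-fold, edgeR adjusted p = 8.24e-06). It was the 1 call among 11 TGF-beta and activin targets, whose median log2 change was -0.1. Among 4 BMP targets, ID2, an inhibitor of basic helix-loop-helix factors, averaged 30.7 ± 4.2 CPM in WT and 13.4 ± 2.0 CPM in Ctrl libraries (2.29-fold, edgeR adjusted p = 1.59e-05). Its relative ID1 fell to 121.1 ± 10.4 CPM in WT libraries, against 162.8 ± 14.8 CPM in Ctrl libraries (1.34-fold, edgeR adjusted p = 0.0307). The ID1 call was lost with the GC trend removed (0.249) and without WT replicate 1 (0.239), WT replicate 2 (0.0577), WT replicate 3 (0.0749) or Ctrl replicate 1 (0.0586).

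**Figure D3:**
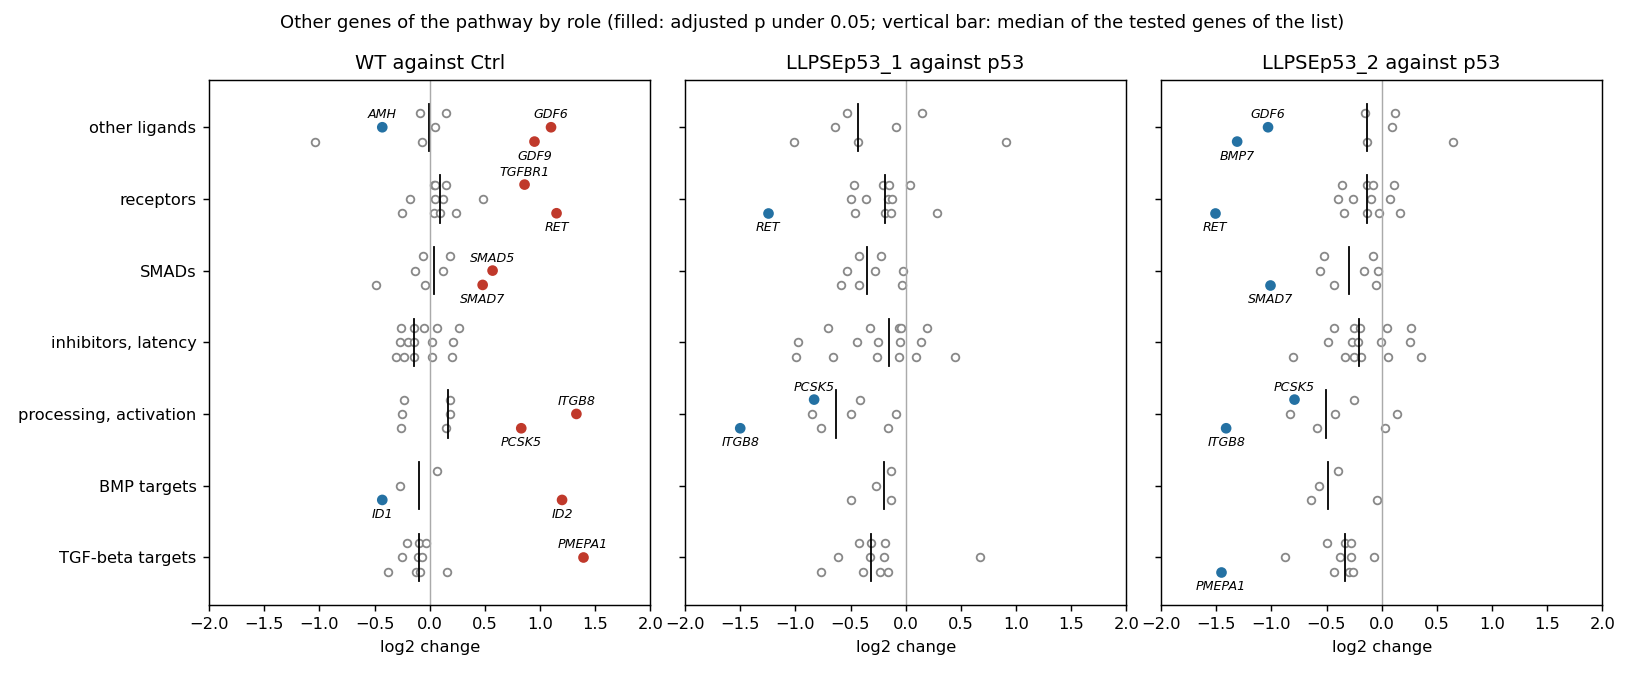
Log2 change (horizontal axes) of the other pathway genes that passed the filter, 67 in each panel, 1 row per list, with the list's median as a vertical bar. Filled points were called, red above 0 and blue below 0. In WT against Ctrl 10 genes rose and 2 fell, while against p53 all called genes fell, 3 for LLPSEp53_1 and 7 for LLPSEp53_2.

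Against p53, the called pathway genes of both LLPSEp53 constructs were lower. For LLPSEp53_2, 7 of 67 fell and none rose (edgeR; DESeq2 also called none higher), with a median log2 change of -0.26 beside 0.01 for all genes, of which 1.93% were called and 1.83% called lower. In either direction, 21 of the 67 had an unadjusted p under 0.05, beside 12.8% of all genes. By list, the genes that fell were 2 of 7 other ligands, 1 of 13 receptors, 1 of 8 SMADs, 2 of 8 processing and activating genes and 1 of 11 TGF-beta and activin targets, and edgeR called 0 of 4 BMP targets (3 with an unadjusted p under 0.05; DESeq2 also called 0). For LLPSEp53_1, 3 of 67 fell and none rose (edgeR; DESeq2 also called none higher), with a median of -0.27 beside 0.00 for all genes, of which 0.888% were called and 0.836% called lower. In either direction, 26 of the 67 had an unadjusted p under 0.05, beside 13.1% of all genes. The genes that fell were 1 of 13 receptors and 2 of 8 processing and activating genes. RET averaged 9.24 ± 0.327 CPM in LLPSEp53_2, 11.0 ± 1.54 CPM in LLPSEp53_1 and 26.3 ± 0.069 CPM in p53 libraries (SD, n = 3, 3 and 2). It fell 2.84-fold in LLPSEp53_2 (edgeR adjusted p = 5.92e-04) and 2.38-fold in LLPSEp53_1 (edgeR adjusted p = 0.00535) relative to p53, and the LLPSEp53_1 call was lost without p53 replicate 3 (0.0878). ITGB8 averaged 5.08 ± 0.954 CPM in LLPSEp53_2, 4.81 ± 1.36 CPM in LLPSEp53_1 and 13.6 ± 0.827 CPM in p53 libraries, and fell 2.67-fold (edgeR adjusted p = 0.00848) and 2.83-fold (0.0142) in that order of constructs. PCSK5 averaged 8.06 ± 0.566 CPM in LLPSEp53_2, 7.87 ± 0.329 CPM in LLPSEp53_1 and had 14.7 and 13.2 CPM in p53 libraries (edgeR adjusted p = 0.0274 and 0.0374). The ITGB8 calls were lost without p53 replicate 1 (0.0539 for LLPSEp53_2 and 0.0861 for LLPSEp53_1), p53 replicate 3 (0.0962 and 0.192) or replicate 2 of the construct (0.0525 and 0.0918). The PCSK5 calls were lost without p53 replicate 1 (0.217 for LLPSEp53_2 and 0.256 for LLPSEp53_1), p53 replicate 3 (0.111 and 0.21) or any LLPSEp53_2 library (0.0893 to 0.115 and 0.0594 to 0.08), and for LLPSEp53_1 also without its replicate 2 (0.15).

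A further 4 pathway genes fell in LLPSEp53_2 relative to p53. PMEPA1 averaged 11.3 ± 2.02 CPM in LLPSEp53_2 and 31.0 ± 5.64 CPM in p53 libraries (2.75-fold lower, edgeR adjusted p = 0.00182). SMAD7 averaged 12.7 ± 1.36 CPM in LLPSEp53_2 and 25.6 ± 2.13 CPM in p53 libraries (2.01-fold lower, edgeR adjusted p = 0.00781). GDF6 averaged 9.63 ± 1.65 CPM in LLPSEp53_2 and 19.6 ± 0.565 CPM in p53 libraries (edgeR adjusted p = 0.00882), and BMP7 averaged 4.87 ± 1.21 CPM in LLPSEp53_2 and 12.1 ± 0.701 CPM in p53 libraries (0.011). In LLPSEp53_1 these genes had log2 changes of -0.77 (PMEPA1), -0.53 (SMAD7), -0.64 (GDF6) and -1.01 (BMP7) against p53, none called. Between the constructs SNAI2, a repressor of epithelial genes, was the 1 call of 67, at 4.06 ± 0.901 CPM in LLPSEp53_2 and 11.9 ± 0.591 CPM in LLPSEp53_1 libraries (edgeR adjusted p = 0.0028). The calls against p53 were lost for SMAD7 without p53 replicate 3 (0.101), for GDF6 without p53 replicate 1 (0.0601) or 3 (0.0928), and for BMP7 without p53 replicate 1 (0.105), p53 replicate 3 (0.0781) or LLPSEp53_2 replicate 2 (0.0503). The count of pathway genes that fell was 3 without p53 replicate 1, 2 without p53 replicate 3, 4 without LLPSEp53_2 replicate 2 and 11 without LLPSEp53_1 replicate 3 for LLPSEp53_2. For LLPSEp53_1 it was 1 without p53 replicate 1, 0 without p53 replicate 3, 1 without LLPSEp53_1 replicate 2, 6 without LLPSEp53_1 replicate 1 or 3, and 2 without any 1 of the LLPSEp53_2 libraries.

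The extracellular inhibitors held no call in any comparison. This list covers secreted antagonists such as NOG and FST, the latency proteins of TGF-beta and the decoy receptor BAMBI. For WT against Ctrl, edgeR called 0 of 15, beside 4.12% of all genes. An unadjusted p under 0.05 was found for 3, beside 18.2% of all genes. For LLPSEp53_2 against p53, edgeR called 0 of 16 (1.93% of all genes), and 0 had an unadjusted p under 0.05 (12.8%). For LLPSEp53_1 against p53 these numbers were 0 of 16 (0.888% of all genes) and 4 (13.1%). Between the constructs edgeR called 0 of 16 (0.372% of all genes), and 0 had an unadjusted p under 0.05, beside 7.23% of all genes. DESeq2 also called 0 in each of these comparisons. For a list of this size, 0 calls is near the shares of all genes called, and nothing is read from it. LTBP2, a latency protein of the matrix, had the smallest adjusted p of the list in LLPSEp53_1 against p53, at 103.0 ± 25.3 CPM in LLPSEp53_1 and 162.7 ± 29.8 CPM in p53 libraries (edgeR adjusted p = 0.171).

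The genes whose pattern was most like that of GDF15 were sought over the 14 libraries without p53 replicate 2. The 12096 genes compared had a mean CPM whose log2 was 2 or more. Likeness was Pearson's r of log2(CPM + 0.5) centred within the year. The libraries of a group share their construct and year, so the values are a description. IHH, a hedgehog ligand, came first with r = 0.95, followed by ACHE, the acetylcholinesterase, CDKN1A and the antiproliferative gene BTG2, all with r = 0.93, and by the phospholipase PLCD1 with r = 0.91. MDM2 stood at rank 46 with r = 0.85. Of the ligand genes, INHBB reached r = 0.76 (rank 162) and BMP8A r = 0.61 (rank 487), while BMP8B (0.14) and TGFB1 (-0.21) were far from it. Without centring within the year, r was -0.58 for IHH, -0.27 for ACHE, 0.66 for CDKN1A, 0.35 for BTG2 and 0.37 for PLCD1. With centring and with p53 replicate 2 included, ACHE stood at rank 41 and PLCD1 at rank 42 (r = 0.83 each). In that setting IHH, BTG2 and CDKN1A held ranks 1, 2 and 3.

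Since these genes were chosen for their likeness to GDF15, their direction in WT against Ctrl is part of the choice. CDKN1A (3.13-fold), ACHE (2.5-fold) and PLCD1 (2.5-fold) were close to the 2.79-fold of GDF15 in size, and BTG2 (15.6-fold) and IHH (44.0-fold) were not. BTG2 averaged 59.2 ± 3.85 CPM in WT and 3.78 ± 0.292 CPM in Ctrl libraries. IHH averaged 3.62 ± 0.192 CPM in WT and 0.0744 ± 0.0862 CPM in Ctrl libraries. The Ctrl values of IHH rest on 0, 3 and 1 counts, so the size of its fold is uncertain (log2 change 5.46 ± 0.52, SE). IHH passed the filter on low counts only through its WT libraries. Within 2022, IHH averaged 10.4 ± 1.8 CPM in LLPSEp53_2, 26.1 ± 5.57 CPM in LLPSEp53_1 and 15.5 ± 1.99 CPM in p53 libraries. CDKN1A averaged 261.1 ± 25.7 CPM in LLPSEp53_2, 424.4 ± 26.1 CPM in LLPSEp53_1 and 285.1 ± 1.46 CPM in p53 libraries. The other 3 genes had their highest mean of 2022 in p53: BTG2 averaged 19.2 ± 3.22 CPM in LLPSEp53_1 and 22.7 ± 2.57 CPM in p53 libraries, ACHE 27.3 ± 4.27 and 28.1 ± 11.5 CPM, and PLCD1 14.7 ± 2.55 and 17.2 ± 0.973 CPM in the same groups.

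**Figure D4:**
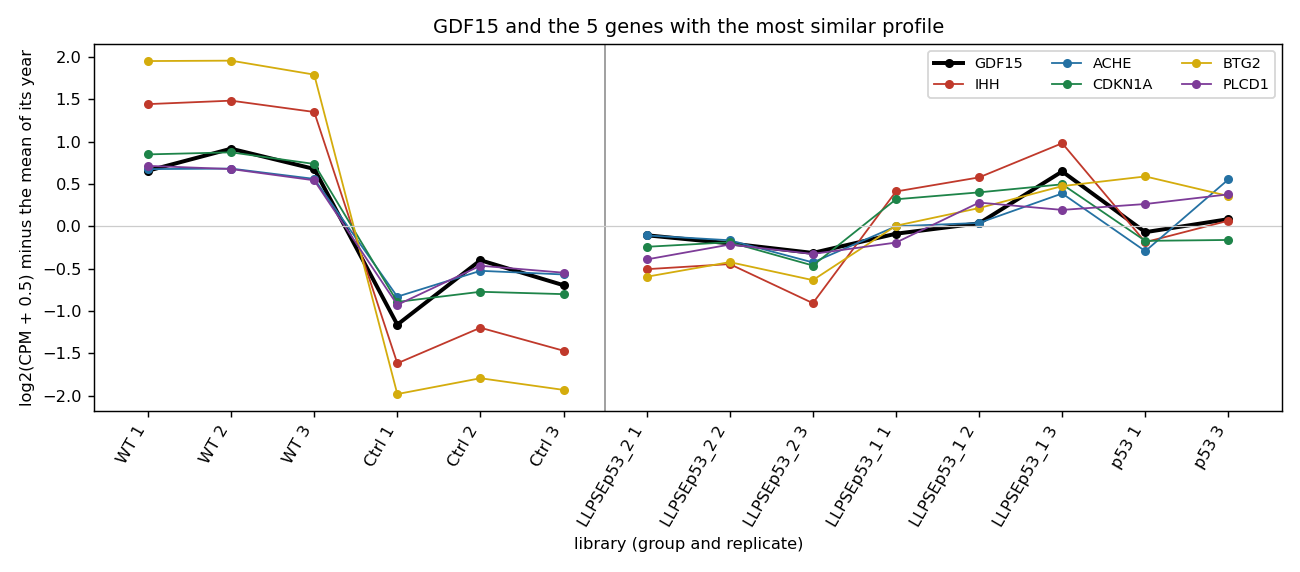
Log2(CPM + 0.5) minus the mean of the year (vertical axis) in each of 14 libraries for GDF15 (black) and the 5 genes of highest Pearson r with it. All 6 genes lie above 0 in the WT libraries and below 0 in the Ctrl libraries, and their spread in 2022 is smaller and differs from gene to gene.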

How the data were processed

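Total RNA of H1299 cells was sequenced from Illumina libraries, per the labels' protocols. The submitters' processing notes name Trimmomatic 0.39, STAR 2.7.10a and GRCh38; no source used here states the counting tool, the annotation or the strand setting. The deposited values are the authors' whole-number counts of reads per gene, 1 library per file and not normalised, as the values themselves show. Symbols were found for 61399 of 61552 gene IDs; positions and exon lengths come from GENCODE 29 (58352 IDs), promoters from RefSeq. The LLPSEp53_1 files were assigned to their construct by sample title, since their column names carry no construct number.

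Groups come from the titles. The test was that of edgeR 4.0.16 under R 4.3.3 (TMM, filterByExpr, quasi-likelihood test, Benjamini-Hochberg adjustment, threshold 0.05). WT and Ctrl were fitted on 6 libraries, and the 9 libraries of 2022 together with a term for the other batch. That term takes p53 replicate 2 out of the p53 level, but the library still entered the filter and the scaling. Log2 changes carry the SE from the quasi-likelihood F. Ratios of low counts carry exact 95% binomial intervals, and a count of 0 allows up to 3 counts; both cover counting error only. Alternatives were DESeq2 1.42.0, other scalings and filters, single libraries left out, the replicate block, GC offsets, no batch term, only the groups compared and a 2-fold minimum.

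The ligand genes, the pathway lists and the naming rule were chosen with earlier results of these data known. The rule names all ligand genes, up to 4 called genes per list and comparison, GFRAL, RET, GDF6, INHA and TGFB3, and the 5 genes most like GDF15. Replicates are not said to be separate cultures, and p-values reflect library-to-library spread, which may be technical. No pair was as alike as sampling noise alone would make it (chi-square over its degrees of freedom, 6.76 to 112). The level of the overexpressed gene itself was not analysed here.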

Additional observations from a re-analysis of the deposited data

Results flagged for a closer look

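In p53 replicate 2, the library of the other collection batch that is left out of the p53 level, 3 ligand genes stood far above the other 8 libraries of 2022. BMP8B was at 51.3 CPM there, with 22.0 CPM as the highest value elsewhere in that year. BMP2 was at 34.1 CPM, with 13.0 CPM as the highest value elsewhere. INHBB was at 62.9 CPM, with 28.8 CPM as the highest value elsewhere. High values in this library were not limited to genes of the pathway. CDKN1A was at 722.9 CPM there, with 284.0 and 286.1 CPM in p53 replicates 1 and 3. MDM2 was at 367.7 CPM, with 201.6 and 164.9 CPM in the same replicates, and BTG2 at 59.5 CPM, with 24.5 and 20.8 CPM. The batch holds this library alone, so its batch and any other property of the library cannot be told apart. BMP8A (26.6 CPM), GDF7 (4.4 CPM), TGFB2 (28.0 CPM) and INHBA (0.453 CPM, 7 counts) were also highest in this library, with 18.2, 3.77, 26.4 and 0.0648 CPM as the highest values elsewhere, while GDF15 (22.9 CPM), BMP4 (4.66 CPM) and TGFB1 (580.0 CPM) lay within the range of the others.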

How the results depend on the processing

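The calls of GDF15, BMP8A and INHBB in WT against Ctrl held in all 13 alternatives, and those of BMP8B and INHBB in LLPSEp53_2 against p53 in all 18. No called change turned its sign. The replicate numbers were not taken to pair the libraries, which would have needed every same-number correlation of deviations to pass 0.1: these were 0.032 to 0.42 in 2023, all above 0, and -0.682 to 0.324 in 2022. WT replicate 3 correlated best with Ctrl replicate 1 (0.264), so not every library of 2023 was closest to its own number. The cause of the differences listed here was not tested. With the replicate number as a block, all genes called in WT against Ctrl numbered 1645 against 665 without it and pathway genes called lower 4; for LLPSEp53_1 against p53 the block gave 40 genes (155 without it), 1 pathway gene lower, and the BMP8A call was lost; for LLPSEp53_2 against p53 it gave 183 (337 without it); between the constructs it gave 33 (65 without it) and 0 ligand genes. The block together with GC offsets gave 0 pathway genes lower in WT against Ctrl; 10 genes, 1 ligand gene and 0 pathway genes for LLPSEp53_1 against p53; 177 genes for LLPSEp53_2 against p53, where the BMP8A call was lost; and 31 between the constructs. GC offsets alone gave 0 pathway genes lower in WT against Ctrl, 244 genes and 6 pathway genes lower for LLPSEp53_1 against p53, 550 for LLPSEp53_2 against p53 and 105 between the constructs. DESeq2 gave 258 genes and 5 pathway genes lower for LLPSEp53_1 against p53, 507 for LLPSEp53_2 against p53 and 151 between the constructs. Without the filter, 562 genes, 8 pathway genes lower and 1 higher were called for LLPSEp53_1 against p53, 823 and 1 pathway gene higher for LLPSEp53_2 against p53, and 235 with 2 pathway genes lower between the constructs. With only the groups compared in the fit, the counts were 64 for LLPSEp53_1 against p53, 1040 with 12 pathway genes lower for LLPSEp53_2 against p53, and 35 with 0 ligand genes between the constructs. With p53 replicate 2 in the p53 level (no batch term), 94 genes were called for LLPSEp53_1 against p53. A 2-fold minimum left 285 genes, 5 pathway genes higher and 0 lower in WT against Ctrl, and 0 ligand genes between the constructs.

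Leaving out 1 library at a time gave 356 to 1381 genes, 4 to 9 pathway genes higher and 0 to 2 lower for WT against Ctrl. For LLPSEp53_1 against p53 it gave 0 to 568 genes, 0 to 4 ligand genes, and 0 to 6 pathway genes lower and 0 to 1 higher. For LLPSEp53_2 against p53 it gave 93 to 928 genes, 2 to 5 ligand genes and 2 to 11 pathway genes lower. Between the constructs it gave 21 to 198 genes and 0 to 1 ligand genes. Where a p53 library was left out, the p53 level rested on 1 library that is assumed to vary like the other groups. INHBA, GDF7 in 2023 and INHBB in Ctrl rest on few counts, up to 15 per library, so smaller differences in them were not detectable at this depth.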

Other observations

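Several other pathway genes also stood apart in p53 replicate 2. RET was at 80.6 CPM there, with 26.2 and 26.3 CPM in p53 replicates 1 and 3. PMEPA1 was at 84.7 CPM, with 35.0 and 27.0 CPM in replicates 1 and 3. PCSK5 was at 44.7 CPM, with 14.7 and 13.2 CPM in replicates 1 and 3. ITGB8, at 12.7 CPM, lay slightly below replicates 1 and 3 (13.0 and 14.1 CPM).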
